A study of Mus musculus with 5 samples.

Results

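The mitosis and spindle genes described here are 34 genes chosen by name for their roles in cell division, from the cyclins that start mitosis to the proteins that split the cell. They were found by matching the Ensembl gene IDs of the count table to GENCODE M21 symbols, and all 34 matched 1 ID each among the 55335 IDs. The cells were fibroblasts, the matrix-making connective tissue cells, grown out of mouse lung as primary cultures. TGF-β1, a secreted cytokine that drives fibroblasts toward matrix-producing myofibroblasts, was given for 24 h at 5 ng/mL in 3 libraries, and 2 control libraries had vehicle alone. The labels call the replicates biologically independent but do not say whether they were separate mice or dishes, and p-values rest on the variation among these 5 libraries. They name no strain, age, sex, passage or vehicle. The comparison addressed which transcripts differ after TGF-β1.

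Genes of this group are transcribed late in the cell cycle, and their transcripts are scarce in cells that have stopped dividing. In dividing cells the transcription factor FOXM1 and the MuvB complex with B-MYB switch them on, whereas in resting cells MuvB joins other partners as the DREAM complex and keeps them off. The level of such transcripts in a culture is therefore widely read as a sign of how many cells are cycling. TGF-β1 is known to halt the growth of epithelial cells, partly through the cyclin-dependent kinase inhibitor gene Cdkn2b, while fibroblasts can respond to it in either direction.

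The 2 control libraries summed to 34283288 and 40245128 counts, and the TGF-β1 libraries to between 39769301 and 43163967. Levels are CPM, a gene's counts as a share of the library's total, scaled with TMM, a method that corrects library totals for a few very abundant genes, and the log2 fold change (log2FC) is TGF-β1 over control with its standard error (SE). TGF-β1 replicate 3 stood apart from the other 2 of its group. The chi-square statistic per degree of freedom was 8.47 and 8.41 against them and 4.06 between them. It was 5.13 between the 2 controls, and 145 to 160.4 between groups. Of 8 fibroblast markers 3 were higher and 5 lower, with a median log2FC of −0.71. Their summed level was 24294 to 25324 CPM in the controls and 30766 to 31001 CPM with TGF-β1. The sum is weighted to the most abundant markers, of which 1 alone reached 16566 CPM. Endothelial markers summed to at most 3.57 CPM in any library, and the epithelial markers Sftpc, Sftpb and Scgb1a1 had 0 counts in all 5 libraries. The 6 epithelial markers summed to 3.09 to 3.34 CPM in the controls and 4.90 to 5.69 CPM with TGF-β1, and of the 2 tested Cdh1 was higher (log2FC 0.95) and Ager did not pass. Markers of mesothelium, the surface layer of the lung, and of macrophages were present and are given beside the results.

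All 34 mitosis and spindle genes passed the low-count filter, and each of the 34 fell after TGF-β1, with adjusted p from 1.62e-06 to 0.0377 and a threshold of 0.05, by edgeR's quasi-likelihood test. Over all 16380 genes tested, 23.2% were lower and 21.3% were higher by the same rule. In each of the 34, every TGF-β1 library lay below both controls, which held for 33.0% of all genes tested. DESeq2 called 33 of the 34 lower, all but Ttk (21.5% of all genes tested), and limma-voom called 34 (23.8%). None of the 34 was higher by either. The median log2FC of the group was −0.73, or 60.3% of the control level, while the median over all genes tested was 0.00. Counts for a member in a library ran from 206 to 4856, so counting error was small for most of them.

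The decreases were moderate and alike in size. What remained ranged from 43.1% (Nusap1) to 76.4% (Pbk) of the control level, and the lower and upper quartiles of the log2FC were −0.80 and −0.68. The count that fell at least 1.5-fold was 29 of 34 (12.9% of all genes tested), and the count that fell at least 2-fold was 2 (7.74% of all genes tested), Nusap1 and Ect2. Against a null of a 1.5-fold change, 15 of the 34 were lower (7.47% of all genes tested). The 95% interval of the log2FC included the group's median in 29 genes, lay wholly below it in 3 (Nusap1, Ect2 and Dlgap5) and wholly above it in 2 (Pbk and Ttk).

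**Figure D1:**
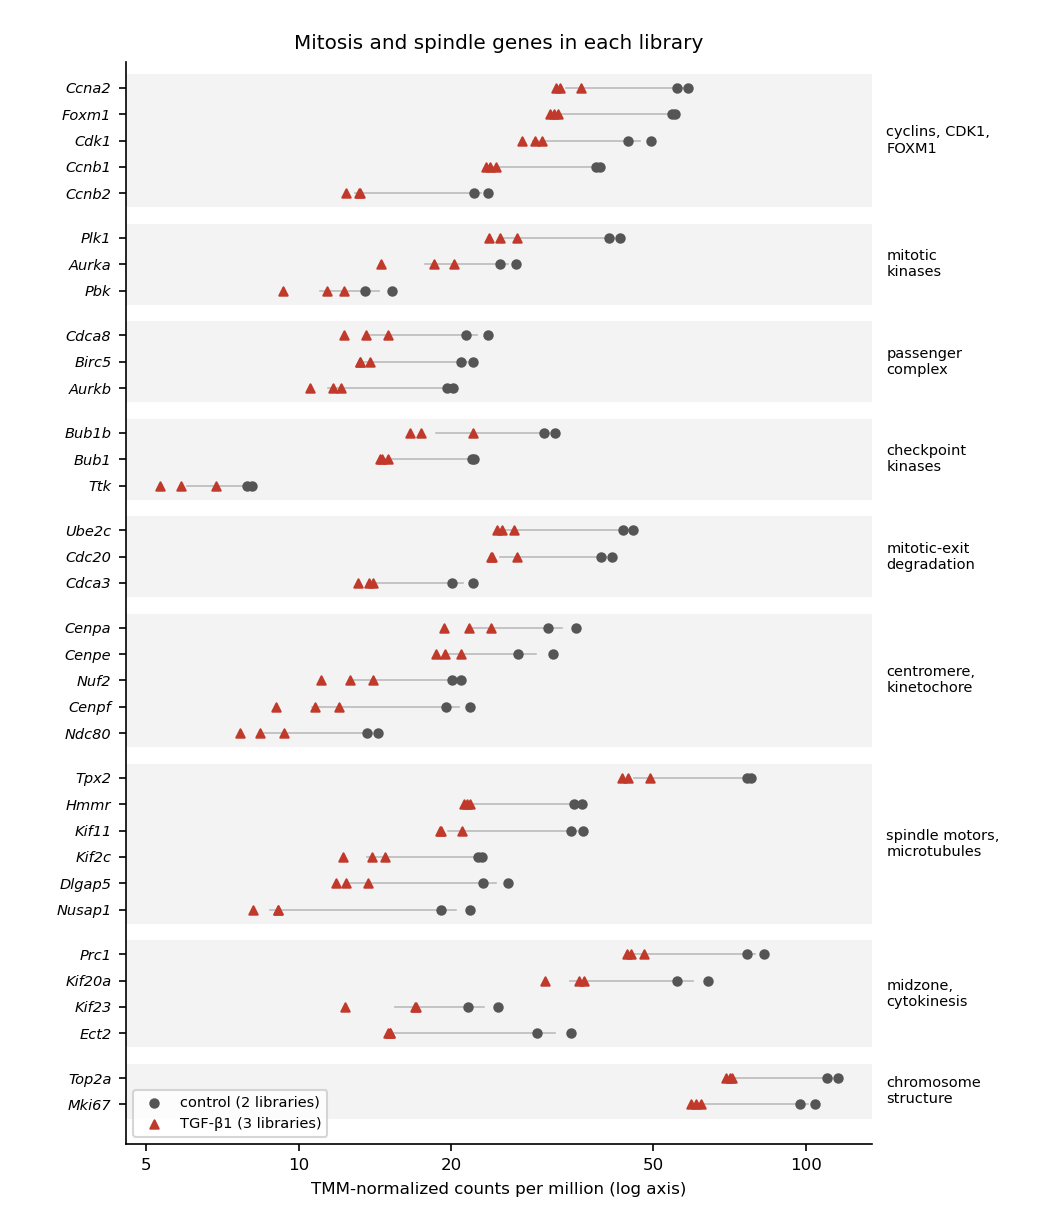
Level of each of the 34 genes in every library, in TMM-normalized CPM on a log axis, arranged by role; circles are the 2 control libraries, triangles the 3 TGF-β1 libraries, and grey lines join the group means. In every row the triangles lie to the left of both circles, from Ttk near 5 to 8 CPM up to Top2a near 70 to 115 CPM.

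The shift was shared by the libraries of each group. Relative to the mean of the controls, the 34 genes had a median log2 level of −0.04 in control 1 and 0.04 in control 2. The medians were −0.74, −0.69 and −0.81 in TGF-β1 replicates 1, 2 and 3, or 59.9%, 62.0% and 56.9% of the control mean. No member in any TGF-β1 library came closer to its control mean than −0.22 on this scale. TGF-β1 replicate 3 was the lowest of its group in 24 of the 34 genes and replicate 2 the highest in 20. Without replicate 3 the median log2FC was −0.72, and 33 of the 34 were called lower. Control 2 was the higher control in 28 of the 34.

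**Figure D2:**
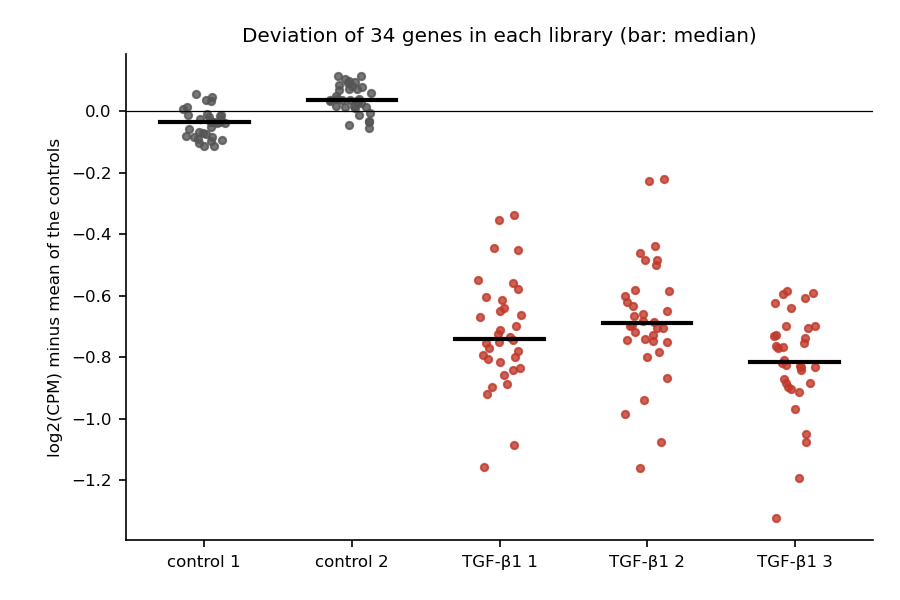
Level of the 34 genes in each library as log2(CPM) minus the gene's mean over the 2 controls, with 1 point per gene and a bar at the median. The control points lie between −0.11 and 0.11, whereas the TGF-β1 points lie between −0.22 and −1.32, with the lowest median, −0.81, in replicate 3.

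In a bulk library, fewer dividing cells and less of these transcripts per dividing cell cannot be told apart. Markers of other cell types were also counted and moved in the same libraries. Bulk counts do not show whether other cells or the fibroblasts themselves made these transcripts. All 7 mesothelial markers were lower, and their summed level was 1367 to 1448 CPM in the controls and 167 to 186 CPM with TGF-β1. Among 8 macrophage and leukocyte markers, none at 0, 6 were lower and 2 higher, and their sum went from 2378 to 2451 CPM down to 1464 to 1496 CPM, most of it Lyz2, the lysozyme of macrophages. Any part of other cells in the decrease of the mitosis genes was not tested.

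Promoter sequences were searched for elements already known from mitosis genes. The members were chosen by role from that class, so a high share among them is not independent of the choice. Mitosis genes are known for a CHR element (cell cycle genes homology region), which MuvB binds, placed near the start and downstream of CCAAT boxes, which NF-Y binds. RefSeq promoter windows of the GRCm38.p6 build, from 250 bases before to 50 after the annotated start, were held for 27 of the 34 genes, not for Aurkb, Dlgap5, Pbk, Ccna2, Foxm1, Tpx2 and Kif20a. Each was searched on both strands for CCAAT, for the CHR core TTTGAA and for the variant TTCGAA, which reads the same on both strands. The window held TTTGAA in 21 of 27 (77.8%), compared with 14.5% of the 11259 tested genes with a window and 20.2% of all 27025 genes with one. CCAAT was found in 22 of 27 (81.5%), against 42.8% of tested genes and 41.1% of all. Both motifs occurred in 19 of 27 (70.4%), against 5.995% of tested genes and 7.97% of all. The variant TTCGAA was in 3 (11.1%: Bub1, Bub1b and Top2a), against 2.44% of tested genes and 1.80% of all. These shares are descriptions of letters in a window and do not show binding.

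Position, order, spacing and number of the motifs were measured in these genes only, with no share in other genes to compare. A TTTGAA began within 50 bases of the annotated start in 19 of the 21 genes that held one. In all 19 genes with both motifs, a CCAAT lay upstream of a TTTGAA, and the smallest spacing in each gene was 9 to 153 bases from start to start, with a median of 32. It lay between 25 and 45 bases in 11 of the 19, and 13 of the 19 held at least 1 pair spaced so. At least 2 CCAAT boxes stood in 16 genes, with up to 6 in Top2a and Ube2c. The window reached further before the start than after it, so a TTTGAA near the start had more window upstream than downstream. With several CCAAT boxes in a gene, an upstream CCAAT and a short smallest spacing are also more likely. The order and spacing therefore describe these windows, and a difference from other genes was not tested. Motifs shared letters in 2 places, in Cdca8 (TTTGAA and CCAAT) and in Ube2c (CCAAT on either strand). Of the 27, 3 genes had none of the 3 motifs: Nusap1, Birc5 and Nuf2.

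Windows from 100 bases before to 30 after the start are shown for 7 genes from 5 of the 9 roles with both motifs near the start, and for Nusap1, which fell the most and held none. Capitals mark the 3 motifs on either strand. A reversed CCAAT box reads ATTGG. A reversed CHR core reads TTCAAA. Each is written 5′ to 3′ on the strand of the gene.
Positions and strands are Cdk1 chr10:69352883-69353012 (minus), Ccnb2 chr9:70421525-70421654 (minus), Ube2c chr2:164769829-164769958 (plus), Cenpf chr1:189688057-189688186 (minus), Kif11 chr19:37376282-37376411 (plus), Hmmr chr11:40733408-40733537 (minus), Prc1 chr7:80294351-80294480 (plus), Nusap1 chr2:119618198-119618327 (plus).
Cdk1: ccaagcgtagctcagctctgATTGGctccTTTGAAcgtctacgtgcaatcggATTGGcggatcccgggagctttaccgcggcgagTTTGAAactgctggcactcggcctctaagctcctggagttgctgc
Ccnb2: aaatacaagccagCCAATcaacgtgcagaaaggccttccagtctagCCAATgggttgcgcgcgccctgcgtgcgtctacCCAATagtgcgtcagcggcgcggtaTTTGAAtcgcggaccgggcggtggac
Ube2c: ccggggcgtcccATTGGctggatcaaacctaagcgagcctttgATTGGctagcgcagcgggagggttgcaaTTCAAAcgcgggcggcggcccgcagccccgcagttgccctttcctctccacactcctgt
Cenpf: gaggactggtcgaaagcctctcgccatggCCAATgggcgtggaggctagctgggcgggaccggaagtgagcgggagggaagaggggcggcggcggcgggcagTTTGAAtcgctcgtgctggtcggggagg
Kif11: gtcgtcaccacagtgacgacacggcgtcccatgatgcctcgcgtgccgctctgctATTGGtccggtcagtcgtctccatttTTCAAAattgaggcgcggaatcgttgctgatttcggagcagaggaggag
Hmmr: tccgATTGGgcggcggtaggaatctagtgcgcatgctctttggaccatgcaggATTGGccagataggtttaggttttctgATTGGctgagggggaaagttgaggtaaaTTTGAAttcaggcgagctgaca
Prc1: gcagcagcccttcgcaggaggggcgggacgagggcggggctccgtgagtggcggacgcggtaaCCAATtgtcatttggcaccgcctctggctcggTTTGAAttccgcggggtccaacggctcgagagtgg
Nusap1: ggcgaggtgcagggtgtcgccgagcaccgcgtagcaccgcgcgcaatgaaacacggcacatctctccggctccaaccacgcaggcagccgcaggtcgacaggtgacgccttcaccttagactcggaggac
In Cdk1, Ccnb2, Cenpf, Hmmr and Prc1 the CHR core reads forward, and in Ube2c and Kif11 it reads reversed. Genes with and without the CHR core fell by like amounts, with a median log2FC of −0.73 over 21 genes and −0.69 over 6. Among the other mitosis genes described below, 46 of 104 windows held TTTGAA (44.2%), 58.7% held CCAAT and 30.8% held both. The share of windows with TTTGAA in the S-phase list given below was 15.0% (3 of 20), with CCAAT in 70.0%.

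**Figure D3:**
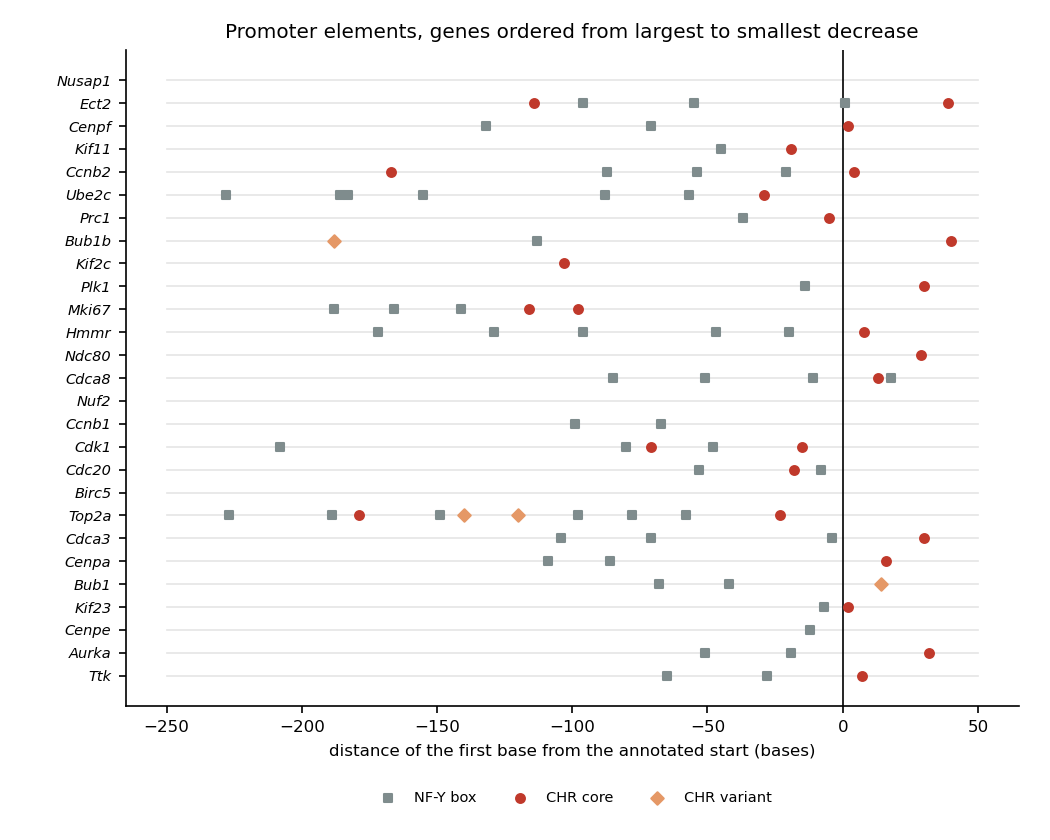
Position of promoter elements in the 27 genes with a RefSeq window, as the distance in bases of the element's first base from the annotated start (0 on the axis), with genes ordered from the largest decrease (Nusap1) to the smallest with a window (Ttk). Squares are CCAAT boxes (NF-Y box), circles the CHR core and diamonds its variant; a circle lies within 50 bases of the start in 19 genes.

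Cyclins, their kinase and the transcription factor of the programme fell together. Ccna2 encodes cyclin A2, which acts in S phase and at mitotic entry (ENSMUSG00000027715 on chromosome 3, 36564865 to 36572150 of GRCm38). It measured 55.7 and 58.6 CPM in the controls and 32.8, 36.0 and 32.2 CPM with TGF-β1. The groups were far apart, with a log2FC of −0.76 (SE 0.061, adjusted p = 8.81e-06). Ccnb2, cyclin B2 (ENSMUSG00000032218 on chromosome 9, 70407692 to 70421547), measured 23.7 and 22.2 CPM in the controls and 13.1, 13.2 and 12.4 CPM with TGF-β1. It fell the most of this role, to 56.3% of control (log2FC −0.83, SE 0.078, adjusted p = 2.61e-05), and its window above holds 3 CCAAT boxes ahead of the CHR core. Ccnb1, cyclin B1, and Cdk1, the kinase that the B-type cyclins activate to start mitosis, both fell by 0.70 on the log2 scale. Their levels went from 38.9 ± 0.476 to 23.9 ± 0.552 CPM and from 47.1 ± 3.36 to 29.0 ± 1.29 CPM (mean ± SD, n = 2 and 3). Foxm1 fell from 54.8 ± 0.517 to 31.9 ± 0.617 CPM (log2FC −0.78, adjusted p = 1.70e-06).

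Among Plk1, Aurka and Pbk, grouped here as mitotic kinases, Plk1 fell the most. Other kinases of mitosis, some of which fell more, are given with other roles. Plk1, polo-like kinase 1, matures centrosomes and drives mitotic entry and exit (ENSMUSG00000030867 on chromosome 7, 122159439 to 122169873). Its levels were 40.9 and 42.9 CPM in the controls and 26.9, 24.97 and 23.7 CPM with TGF-β1 (log2FC −0.73, SE 0.067, adjusted p = 2.11e-05). Aurka, the centrosomal Aurora kinase, was less even, at 26.9 and 24.9 CPM in the controls and 20.2, 18.5 and 14.5 CPM with TGF-β1. All 3 TGF-β1 libraries were below both controls and replicate 3 was the lowest (log2FC −0.54, SE 0.123, adjusted p = 0.0059). Its call was lost without control 1 (adjusted p = 0.0676). Pbk, a kinase active in mitosis, had the smallest change, from 13.5 and 15.2 CPM to 11.4, 12.3 and 9.33 CPM (log2FC −0.39, SE 0.126, adjusted p = 0.0324). The call for Pbk was lost without control 1, without control 2 or without TGF-β1 replicate 1 (adjusted p = 0.0667, 0.223 and 0.0521).

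The chromosomal passenger complex, which corrects faulty spindle attachments and then moves to the midzone, fell in all 3 of its members here. Aurkb, its kinase (ENSMUSG00000020897 on chromosome 11, 69045647 to 69051664), measured 19.6 and 20.1 CPM in the controls and 10.5, 12.1 and 11.7 CPM with TGF-β1. The log2FC was −0.80 (SE 0.090, adjusted p = 8.36e-05), with no overlap between groups. Cdca8, the subunit borealin (ENSMUSG00000028873 on chromosome 4, 124918465 to 124939311), measured 21.4 and 23.6 CPM in the controls and 13.6, 15.0 and 12.3 CPM with TGF-β1 (log2FC −0.72, SE 0.099, adjusted p = 0.000293). Birc5, survivin, the third subunit here, fell by 0.68 on the log2 scale, from 21.5 ± 0.810 to 13.4 ± 0.345 CPM.

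Spindle checkpoint kinases hold back anaphase until every chromosome is attached. Bub1b, the checkpoint protein BubR1 (ENSMUSG00000040084 on chromosome 2, 118598211 to 118641591), measured 32.0 and 30.4 CPM in the controls and 17.4, 22.1 and 16.6 CPM with TGF-β1. Replicate 2 was the highest of its group and still below both controls (log2FC −0.74, SE 0.113, adjusted p = 0.000592). Bub1, which recruits the checkpoint to kinetochores, was tight within groups and fell from 22.1 ± 0.118 to 14.7 ± 0.274 CPM (log2FC −0.59). Ttk, the kinase MPS1 at the head of the checkpoint, was the member with the fewest counts and measured 7.92 and 8.11 CPM against 5.87, 6.88 and 5.33 CPM. Its decrease was close to the threshold (log2FC −0.41, SE 0.139, adjusted p = 0.0377). The call for Ttk was lost without control 1, control 2, TGF-β1 replicate 1 or TGF-β1 replicate 3 (adjusted p = 0.123, 0.147, 0.093 and 0.0745) and with DESeq2 (adjusted p = 0.0524).

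Genes of the ubiquitin machinery that ends mitosis fell likewise. Ube2c is the ubiquitin-conjugating enzyme of the anaphase-promoting complex, which destroys cyclins (ENSMUSG00000001403 on chromosome 2, 164769898 to 164778822). Its values were 45.6 and 43.6 CPM in the controls and 24.6, 26.6 and 25.2 CPM with TGF-β1, groups well apart, with a log2FC of −0.81 (SE 0.060, adjusted p = 4.80e-06). Cdc20, the activator of that complex, went from 40.4 ± 1.33 to 24.99 ± 1.73 CPM (log2FC −0.69). Cdca3, which helps destroy the inhibitory kinase WEE1, went from 21.0 ± 1.41 to 13.6 ± 0.475 CPM (log2FC −0.63).

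At the centromere, Cenpa encodes the histone H3 variant that marks the site of the kinetochore (ENSMUSG00000029177 on chromosome 5, 30666777 to 30674830). It measured 31.0 and 35.2 CPM in the controls and 21.7, 24.0 and 19.3 CPM with TGF-β1 (log2FC −0.61, SE 0.096, adjusted p = 0.000724). Cenpf, a large protein of the outer kinetochore (ENSMUSG00000026605 on chromosome 1, 189640606 to 189688086), measured 19.5 and 21.8 CPM in the controls and 12.03, 10.8 and 9.02 CPM with TGF-β1. It fell the most of the 5 genes of this role, to 51.3% of control (log2FC −0.96, SE 0.121, adjusted p = 0.000174). Cenpe, the kinesin that moves chromosomes to the spindle equator, fell by 0.58 on the log2 scale. Ndc80 and Nuf2, subunits of the complex that grips microtubule ends, fell by 0.72 and 0.70, with all 3 TGF-β1 libraries below both controls in each.

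All 6 spindle motors and microtubule proteins fell, with log2FC from −1.21 to −0.73. Tpx2 activates Aurora A on the spindle (ENSMUSG00000027469 on chromosome 2, 152847964 to 152895321) and measured 78.1 and 76.6 CPM in the controls and 44.7, 49.2 and 43.4 CPM with TGF-β1. The fold change was close to the group's median (log2FC −0.76, SE 0.060, adjusted p = 7.54e-06). Nusap1, a nucleolar and spindle protein that bundles microtubules (some of whose exons overlap Oip5 on the other strand; ENSMUSG00000027306 on chromosome 2, 119618298 to 119651244), measured 19.1 and 21.7 CPM in the controls and 9.12, 9.12 and 8.14 CPM with TGF-β1. The TGF-β1 libraries were all far below either control, and the log2FC of −1.21 (SE 0.0996, adjusted p = 9.98e-06) was the largest decrease of the 34. Dlgap5, a microtubule-stabilizing protein, fell to 51.6% of control (log2FC −0.96), and Kif11, the kinesin that pushes the poles apart, fell to 55.7% (log2FC −0.84). Kif2c, a kinesin that shortens microtubules, and Hmmr, a spindle-pole protein that also binds hyaluronan, fell by 0.74 and 0.73 on the log2 scale.

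Cytokinesis genes included the gene with the second largest decrease. Ect2, the exchange factor that activates RhoA where the cell will cleave (ENSMUSG00000027699 on chromosome 3, 27097222 to 27153878), measured 29.5 and 34.5 CPM in the controls and 15.0, 15.1 and 15.1 CPM with TGF-β1. The 3 TGF-β1 values were nearly identical and about 47.1% of control (log2FC −1.08, SE 0.081, adjusted p = 5.34e-06). Prc1, which crosslinks midzone microtubules (ENSMUSG00000038943 on chromosome 7, 80294450 to 80316259), measured 76.4 and 82.7 CPM in the controls and 45.2, 48.03 and 44.4 CPM with TGF-β1 (log2FC −0.79, SE 0.056, adjusted p = 3.58e-06). Kif20a, a midzone kinesin, fell from 59.9 ± 6.06 to 34.3 ± 3.24 CPM (log2FC −0.81). Kif23, the kinesin of the centralspindlin complex, fell from 23.2 ± 2.23 to 15.5 ± 2.69 CPM (log2FC −0.58, adjusted p = 0.00671), a call lost without control 2 (adjusted p = 0.0861).

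The proliferation marker Mki67, whose protein Ki-67 coats mitotic chromosomes (ENSMUSG00000031004 on chromosome 7, 135689784 to 135716361), measured 97.2 and 104 CPM in the controls and 60.6, 62.2 and 59.3 CPM with TGF-β1. Top2a, the topoisomerase that untangles sister chromatids (ENSMUSG00000020914 on chromosome 11, 98992943 to 99024189), measured 110.1 and 115 CPM in the controls and 71.0, 71.3 and 69.5 CPM with TGF-β1. Both were tight within groups and well separated, with log2FC values of −0.73 (SE 0.048, adjusted p = 2.28e-06) and −0.68 (SE 0.043, adjusted p = 1.62e-06).

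**Figure D4:**
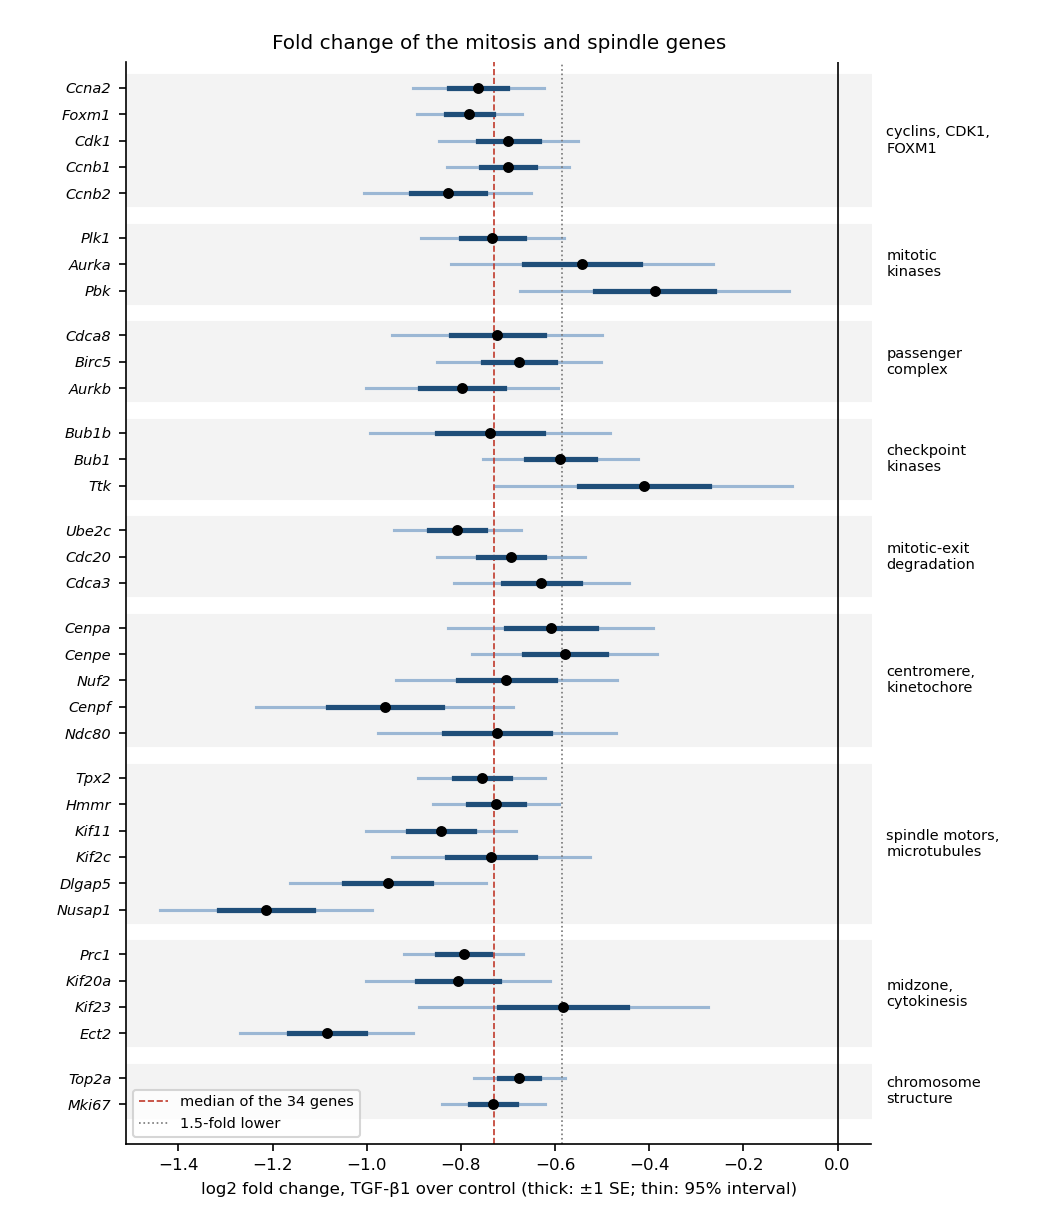
Log2FC of each of the 34 genes, TGF-β1 over control, by role; points are edgeR estimates, thick lines ±1 SE and thin lines 95% intervals, with the group's median (−0.73) dashed and a 1.5-fold decrease dotted. All 34 intervals end below 0, and those of Nusap1, Ect2 and Dlgap5 lie left of the median.

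Levels between genes can be set side by side only per length, as TPM, the count over the length of a gene's merged exons scaled to the same total in each library. In the controls they ran from 4.97 ± 0.374 TPM for Cenpf and 6.05 ± 0.0824 TPM for Ttk to 70.8 ± 2.24 TPM for Plk1 and 80.4 ± 2.41 TPM for Cdc20. With TGF-β1 the same 4 genes had 2.39 ± 0.328, 4.26 ± 0.552, 39.9 ± 2.31 and 46.5 ± 3.25 TPM. Every one of the 34 was thus still detected in the treated cultures.

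Some values are uncertain because reads from another gene could be counted with them, since no source used here gives the strand setting of the count. Exons of Ccna2, Cdc20, Cdca8, Kif20a, Nusap1 and Prc1 overlap those of Exosc9, Elovl1, 9930104L06Rik, Cdc23, Oip5 and Rccd1 on the opposite strand, which were counted at over 0.1 of the member's level. These neighbours had log2FC values of 0.25, 0.02, 0.21, 0.01, −0.67 and 0.37. Cdc23 and Oip5 also belong to lists of other mitosis genes below, and the value of Cdc23 is the median of the anaphase-promoting complex list. Ndc80 has a similar copy, 2700099C18Rik, with 460 counts over the 5 libraries against 2111 for Ndc80 and a log2FC of −0.67. Pseudogene copies of Ccnb1 held at most 223 counts against 5916 for Ccnb1.

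Other mitosis genes, taken from 5 lists of 122 genes in all, were mostly lower as well. All 122 were tested, and 78 were lower, 10 were higher and 34 did not pass, with a median log2FC of −0.42. The shares to set beside this and each list below are 23.2% lower and 21.3% higher over all genes tested. The highest share of lower genes was among other spindle, midzone and cytokinesis genes, where 24 of 25 were lower and 1 was higher, with a median of −0.79. Anln, encoding anillin, the scaffold of the contractile ring, fell from 145 ± 2.33 to 61.2 ± 1.32 CPM (log2FC −1.25, SE 0.041, adjusted p = 1.84e-08). Aspm, a spindle-pole protein, and Knstrn, a kinetochore and spindle adaptor, fell by 1.06 and 1.01 on the log2 scale. The exception was Kif2a, a microtubule-shortening kinesin used outside mitosis too, which rose with a log2FC of 0.25 (adjusted p = 0.0107) and was chosen after its value was seen.

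Kinetochore and checkpoint genes had 24 of 38 lower, 2 higher and 12 that did not pass (median −0.52). Haspin, a histone kinase, Spdl1, a recruiter of dynein, and Sgo2a, a protector of cohesion, fell by 0.95, 0.95 and 0.93 on the log2 scale. Of the condensin, cohesin and separase genes, 13 of 20 were lower, 2 were higher and 5 did not pass (median −0.33). Esco2, which acetylates cohesin in S phase, fell from 8.22 ± 1.26 to 3.94 ± 0.157 CPM (log2FC −1.06). Espl1, the protease separase, and the condensin subunit Ncapd2 fell by 0.75 and 0.70.

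Genes of the anaphase-promoting complex, with which Ube2c and Cdc20 work, had no common direction. Of 17 genes of that machinery 5 were lower, 4 were higher and 8 did not pass. These counts are close to the shares over all genes tested (23.2% lower and 21.3% higher) and are not read as a result about the list. The median log2FC of the 17 was 0.01 (with library totals alone, 7 lower, 1 higher and −0.09). The largest decreases were in Fbxo5, the inhibitor EMI1 (log2FC −0.51), Anapc1, the largest subunit (−0.43), and Fzr1, the activator CDH1 (−0.38). Among entry regulators and MuvB genes, 12 of 22 were lower, 1 was higher and 9 did not pass (median −0.30). Cdc25b, a phosphatase that activates CDK1, fell from 18.3 ± 0.284 to 8.88 ± 0.961 CPM (log2FC −1.05), and Ccnf, cyclin F, and Melk, a mitotic kinase, fell by 0.94 and 0.68.

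Of 25 S-phase genes, 17 were lower, 0 were higher and 8 did not pass, with a median log2FC of −0.36. For this list and the next, the shares over all genes tested were again 23.2% lower and 21.3% higher. By edgeR 0 were higher at an unadjusted p under 0.05, and by DESeq2 or limma-voom 0 at an adjusted p under 0.05. Without TGF-β1 replicate 3, edgeR called 19 lower and 1 higher. Rrm1, the large subunit of ribonucleotide reductase, and Uhrf1, a factor that maintains DNA methylation, fell by 0.72 and 0.70. Of 10 CDK inhibitors and D-type cyclins, 4 rose, 5 fell and 1 passed in neither direction. Cdkn2b, the inhibitor p15, rose from 45.3 ± 0.344 to 118 ± 7.53 CPM (log2FC 1.38, adjusted p = 1.32e-07), while Ccnd1, cyclin D1, and Cdkn2c, the inhibitor p18, fell by 1.15 and 1.05. The differences between these lists were not tested.

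**Figure D5:**
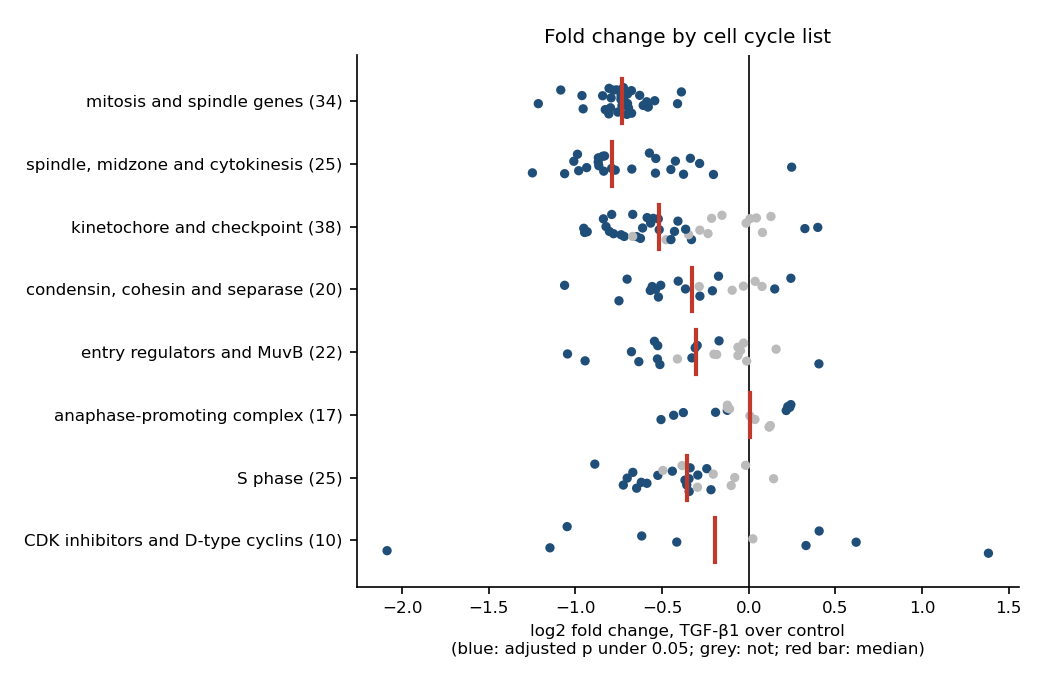
Log2FC of each gene, TGF-β1 over control, in the 34 mitosis and spindle genes and in 7 other cell cycle lists, with the number of genes in brackets; blue points have an adjusted p under 0.05, grey points do not, and red bars are medians. The 34 genes cluster around −0.73 with none above 0, whereas the anaphase-promoting complex is centred at 0.01.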

How the data were processed

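The 5 deposited columns were analysed, each holding raw whole-number counts per Ensembl gene as the authors deposited them. Libraries were strand-specific and made from polyA RNA, per the labels' protocols. The submitters' processing notes name STAR 2.5.3a, StringTie 1.3.1c and mm10 without roles, and no source used here names the counting step or its strand setting.

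GENCODE M21 (GRCm38) gave symbols to 55154 of the 55335 IDs, and the 181 others held no more than 0.00374% of any library. After filterByExpr and TMM scaling, edgeR's quasi-likelihood test compared the groups with no other covariate, two-sided, and Benjamini-Hochberg adjustment ran over all 16380 tested genes. The SE is the size of the log2FC over the square root of F. No exact permutation of 2 and 3 libraries gives a p under 0.1. The fit was tested on simulated data.

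The members and lists were chosen with earlier results of these data known. In each role the member with the highest mean CPM and that with the largest change are given by library, and up to 3 genes per other list with a mean of at least 5 CPM are named by size of change. A result for 1 S-phase gene that this rule names is not reported here. Aurka, Pbk and Ttk by library, other exceptions named as such, and the windows shown were chosen after the values were seen. Near-identical copies were sought with BLAST 2.17.0 at 95% identity over at least 300 bases. Other versions were edgeR 4.0.16 on R 4.3.3, DESeq2 1.42.0, limma 3.58.1, and for the motifs and figures pandas 2.3.3, matplotlib 3.10.9 and Python 3.11.15.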

Additional observations from a re-analysis of the deposited data

How the results depend on the processing

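All 34 mitosis and spindle genes kept a negative log2 fold change in each of the 14 alternatives, and 31 to 34 were called lower in the alternatives other than the test against a 1.5-fold change. That test called 15 of the 34, 14 other mitosis genes lower and 0 higher, and 1786 genes in all, since it asks for a larger change. With library totals the median of the 34 was −0.83 and the per-library medians were −0.84, −0.79 and −0.91, while the median of all genes moved to −0.10. The share of calls that were higher then went from 47.9% to 32.1%, and 4 other mitosis genes were higher in place of 10. The per-library medians under other scalings were added after seeing the data.

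Leaving out 1 library at a time gave 31 to 34 members lower, a median of −0.75 to −0.69, 57 to 78 other mitosis genes lower and 6 to 10 higher, with the 6 without control 2. The calls for Aurka, Pbk, Ttk and Kif23 were each lost in at least 1 of these fits. Pbk and Ttk were also lost without the low-count filter (adjusted p = 0.0686 and 0.0657). A fit with 1 control has less power, so a lost call need not mean a smaller decrease. Without control 1 the log2FC of Pbk and Ttk was larger in size (−0.47 and −0.43) and that of Aurka smaller (−0.49). Without control 2 those of Pbk, Ttk and Kif23 were smaller (−0.30, −0.39 and −0.48).

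Same-numbered control and TGF-β1 libraries are linked by number alone, and whether they were paired is not known. Their deviations correlated at 0.0159 and 0.0161. The deviations of the 2 controls mirror each other, so these values cannot settle the pairing. With the replicate block the members' median was −0.72, and 32 were lower, without Pbk and Ttk (adjusted p = 0.055 and 0.0864), and 7265 genes were called. Replicate 3 has no control, so its block takes up that library and the group contrast rests on replicates 1 and 2. The block fit is therefore no check separate from the fit without TGF-β1 replicate 3, where the median was also −0.72. With 100 bases in place of 250 before the start, TTTGAA was in 20 of 27 windows and CCAAT in 20 of 27. Both were in 17, and the variant TTCGAA was in 1 in place of 3. Among tested genes with a window the shares were then 5.83% for TTTGAA, 29.3% for CCAAT, 1.80% for both and 0.968% for TTCGAA. Precision is limited by the 2 control libraries, and for Ttk also by its counts, the fewest of the 34.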
